A study of Mus musculus with 4 samples.

Results

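The genes described here are the mouse genes of the MHC class II pathway, 10 of the 49315 genes in the count table, chosen by name: the chains of the classical molecules (*H2-Aa*, *H2-Ab1*, *H2-Eb1*, *H2-Eb2*), the chains of the peptide-loading molecules (*H2-DMa*, *H2-DMb1*, *H2-Oa*, *H2-Ob*), the invariant chain *Cd74* and the regulator *Ciita*. Reads per gene were counted in RNA of lung cells sorted as group 2 innate lymphoid cells (ILC2s), in 4 libraries with 1 library per group. PBS-WT and BLEO-WT came from wild-type C57BL/6 mice given phosphate-buffered saline or bleomycin, a drug that injures the lung and is used to produce fibrosis. PBS-HPS1 and BLEO-HPS1 came from mice with the same treatments that lack *Hps1* (Hps1-/-, congenic with C57BL/6), a gene of lysosome-related organelle biogenesis whose loss causes Hermansky-Pudlak syndrome. By the study's methods, mice were 10 weeks old, bleomycin was given at 25 U/kg daily for 6 days, and lungs were taken at day 12. That age, dose and schedule are those of the study's intraperitoneal protocol. The labels themselves give neither the route nor the number of mice pooled per library. The cells were sorted as lineage-negative, Thy1.2+ ICOS+ T1/ST2+ and cultured with IL-2, and 22405 cells of PBS-WT, 38873 of PBS-HPS1, 84166 of BLEO-WT and 128647 of BLEO-HPS1 were sequenced.

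MHC class II molecules display peptides from endocytosed proteins to CD4 T cells. An alpha and a beta chain assemble on the invariant chain, endosomal proteases cut that chain away, and H2-DM exchanges the remaining piece for antigenic peptides while H2-DO holds H2-DM back. CIITA, which binds no DNA itself, switches the genes on by docking onto RFX, CREB and NF-Y at the X and Y boxes of their promoters. Dendritic cells, B cells and macrophages are the cells best known for this program, and ILC2s can also carry class II molecules.

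Letters of the X and Y box cores stand before the start of several members, and 6 stretches are shown to let a reader see where. Each is the 140 bases before the gene's start in RefSeq, 5′ to 3′ on the gene's strand, on build GRCm38.p6, with the Y box core (ATTGG) and the X1 box core (AGCAAC) in capitals.
H2-Eb1, plus strand, chr17:34305727-34305866: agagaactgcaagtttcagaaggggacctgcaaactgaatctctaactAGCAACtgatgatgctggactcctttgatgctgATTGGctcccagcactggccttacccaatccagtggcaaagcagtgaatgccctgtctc
H2-Eb2, plus strand, chr17:34325535-34325674: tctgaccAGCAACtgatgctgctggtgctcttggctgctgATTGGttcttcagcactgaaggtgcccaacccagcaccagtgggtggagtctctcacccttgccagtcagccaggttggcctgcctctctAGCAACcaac
H2-Oa, plus strand, chr17:34092239-34092378: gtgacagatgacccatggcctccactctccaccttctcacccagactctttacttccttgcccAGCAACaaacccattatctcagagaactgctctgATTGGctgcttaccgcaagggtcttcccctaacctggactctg
H2-Ob, plus strand, chr17:34238765-34238904: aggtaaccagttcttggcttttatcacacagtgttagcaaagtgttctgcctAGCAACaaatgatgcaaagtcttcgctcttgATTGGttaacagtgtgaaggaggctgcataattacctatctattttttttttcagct
H2-Aa, minus strand, chr17:34287824-34287963: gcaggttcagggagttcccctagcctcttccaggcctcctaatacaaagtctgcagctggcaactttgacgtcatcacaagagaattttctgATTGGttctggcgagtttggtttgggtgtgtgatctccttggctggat
H2-DMb1, plus strand, chr17:34153051-34153190: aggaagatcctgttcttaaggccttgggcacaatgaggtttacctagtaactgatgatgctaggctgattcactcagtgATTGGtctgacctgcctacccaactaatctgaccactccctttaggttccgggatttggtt

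The RefSeq promoter table, with windows of 250 bases before to 50 bases after a start, held 7 of the 10 members in 8 windows, *H2-DMa* having 2 starts. *H2-Ab1*, *Cd74* and *Ciita* were not among the matched names. Both strands were searched. The Y box core stood in 7 of 8 member windows, which covered 7 of 7 genes, and in 37.4% of all 32851 windows. In *H2-DMa* it stood in the window of 1 of its 2 starts, 198 bases before it. The X1 box core stood in 4 of 8 member windows, of 4 genes, and in 14.8% of all windows. The 2 cores in the order X1 then Y, with starts 30 to 55 bases apart, stood in the same 4 windows and in 0.359% of all windows. Those 4 belonged to *H2-Eb1*, *H2-Eb2*, *H2-Oa* and *H2-Ob*. In these genes the cores lay 33, 33, 34 and 31 bases apart. *H2-Aa* and *H2-DMb1* had the Y core 48 and 61 bases before the start, without these X1 letters in the window. The X box varies between genes, so a window without these letters says only that the exact 6 bases are absent.

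**Figure D1:**
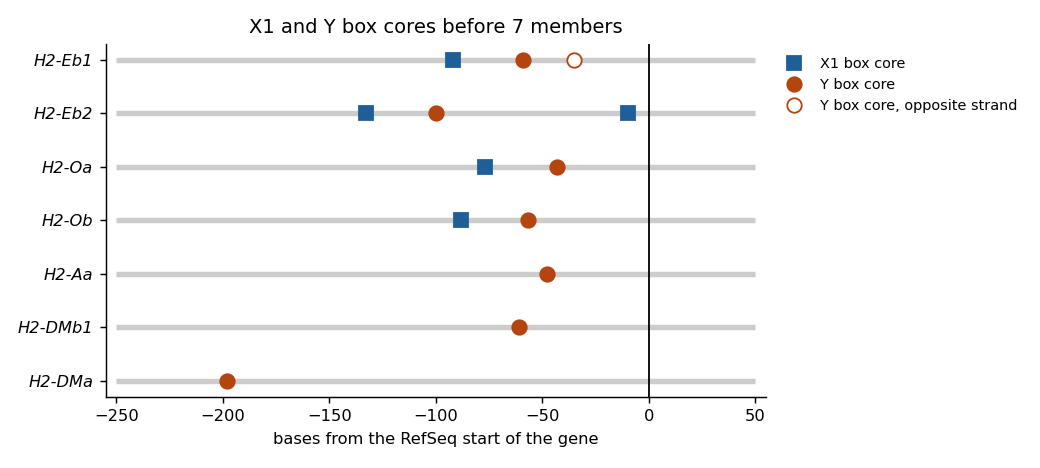
Positions of the X1 box core (squares) and the Y box core (circles, open on the opposite strand) in RefSeq windows of 7 members, in bases from the start of each gene. In *H2-Eb1*, *H2-Eb2*, *H2-Oa* and *H2-Ob* an X1 core precedes a Y core by 31 to 34 bases.

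The 8 *H2* members lie within one stretch of chromosome 17 in GENCODE M21 (GRCm38), from *H2-Oa* at 34092340 to the end of *H2-Eb2* at 34341412. GENCODE starts of *H2-DMb1* (34153072), *H2-Oa* (34092340), *H2-Ob* (34238903) and *H2-Eb2* (34325665) fall inside the RefSeq stretches printed above. In *H2-DMb1* most of that stretch, with its Y core, lies within the GENCODE gene. *Ciita* lies on chromosome 16 (10480059 to 10528418) and *Cd74* on chromosome 18 (60803848 to 60812652). All are annotated as protein coding. Some share bases with a gene on the opposite strand: *H2-Oa* with *BC051537*, *H2-DMa* with *Brd2* and *Gm20493*, *H2-Eb1* with *Gm20513*, and *Ciita* with *Dexi*. *Cd74* holds *Mir5107* on its own strand. Whether the counting used strand is not given in the sources used here, so a share of these genes' reads could belong to the partner.

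Total counts were 72513619 to 87638154 per library, and all 10 members were among the 14840 genes compared, those with at least a CPM of 1 in some library. CPM are counts put on 1 library size, here with TMM factors, which align libraries on most of their genes. *Hps1* itself had 38.3 CPM in PBS-WT against 16.6 in PBS-HPS1, and 48.4 in BLEO-WT against 21.3 in BLEO-HPS1, so both Hps1-/- libraries were lower but kept reads. With 1 library per group no difference could be tested, the spread between mice is unknown, and every interval below is an exact 95% interval for counting error only. In bulk RNA, fewer cells of a type and less RNA per cell cannot be told apart.

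The libraries labelled ILC2 also held transcripts of other cells. Of 14 ILC2 markers in the table, the summed level was 705 to 1067 CPM, and *Gata3*, the lineage's defining factor, had 25.1 to 39.1 CPM. The ILC2 cytokine genes *Il5* (0.293 to 1.06 CPM) and *Il13* (0.269 to 1.43 CPM) were near the 1 CPM level. The 12 macrophage markers summed to 7992 to 20429 CPM, led by *Lyz2* with 6083 to 13145 CPM, and none of the 12 was at 0 in any library. The 12 dendritic cell markers (946 to 1524 CPM), 12 B cell markers (191 to 427 CPM) and 10 T cell markers (738 to 1524 CPM) were likewise all above 0. The sort removed cells with CD3, CD11b and B220 on their surface.

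Class II transcripts were among the most abundant RNAs of these libraries. The 10 members took 1.09% of all reads in PBS-WT against 0.690% in PBS-HPS1, and 1.51% in BLEO-WT against 2.30% in BLEO-HPS1. The sequence of libraries by this share was PBS-HPS1, PBS-WT, BLEO-WT, BLEO-HPS1, and counting intervals around each share did not touch. *Cd74*, *H2-Ab1*, *H2-Eb1* and *H2-Aa* together gave 93.0% to 94.5% of the members' reads in each library. Per kilobase of transcript, *Cd74* ranked 6 in PBS-WT and 12 in PBS-HPS1 among 14813 genes with a known length, then 5 in BLEO-WT and 4 in BLEO-HPS1.

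**Figure D2:**
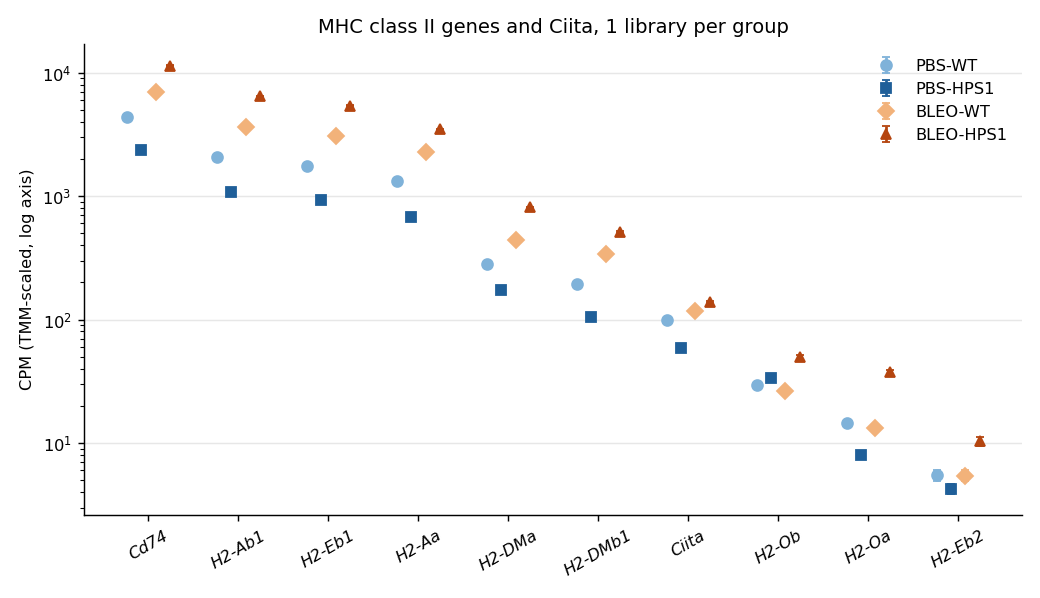
CPM of each member on a log axis in the 4 libraries, 1 point per library, with bars for the exact 95% counting interval, mostly smaller than the points. BLEO-HPS1 is highest for all 10 members, from 10.3 CPM for *H2-Eb2* to 11397 CPM for *Cd74*.

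Of the chains, *H2-Ab1*, the beta chain of the I-A molecule, had 2073 CPM in PBS-WT against 1072 in PBS-HPS1, and 3634 in BLEO-WT against 6406 in BLEO-HPS1. *H2-Aa*, its alpha chain, had 1334, 674, 2282 and 3471 CPM in the same libraries. *H2-Eb1*, the beta chain of the I-E molecule, had 1753, 932, 3052 and 5393 CPM. In all 3 genes the Hps1-/- library was the lowest of the 4 after PBS and the highest after bleomycin.

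I-E also needs an alpha chain, and C57BL/6 mice are known to carry a deletion that silences it. *H2-Ea-ps*, the name under which the table lists that gene, had 3 reads in PBS-WT against 21 in PBS-HPS1, and 2 in BLEO-WT against 0 in BLEO-HPS1. *H2-Eb1* had 92312 to 340723 reads in the same libraries. *H2-Eb2*, a second E beta gene, had only 5.46 CPM in PBS-WT against 4.26 in PBS-HPS1, and 5.45 in BLEO-WT against 10.3 in BLEO-HPS1. Per kilobase this was 0.0878% to 0.225% of *H2-Eb1*. Its PBS-WT and BLEO-WT levels differed by less than counting error.

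*Cd74* encodes the invariant chain that fills the groove of new class II molecules and steers them to endosomes. It had 4391 CPM in PBS-WT against 2353 in PBS-HPS1, and 6958 in BLEO-WT against 11397 in BLEO-HPS1. The order of libraries was that of the 3 abundant chains.

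*H2-DMa* and *H2-DMb1* encode the chains of H2-DM, the peptide exchanger. *H2-DMa* had 281 CPM in PBS-WT against 172 in PBS-HPS1, and 443 in BLEO-WT against 808 in BLEO-HPS1. *H2-DMb1* had 194.6, 104, 337 and 511 CPM. Both kept the same order of libraries as the abundant chains. *H2-DMb2*, a near copy of *H2-DMb1* that is no member, had 56.7, 39.9, 84.7 and 184 CPM, and reads of the pair could have been split between them by the counting.

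*H2-Oa* and *H2-Ob* encode H2-DO, the inhibitor of H2-DM known above all from B cells. *H2-Oa* had 14.4 CPM in PBS-WT against 8.04 in PBS-HPS1, and 13.1 in BLEO-WT against 37.8 in BLEO-HPS1. *H2-Ob* had 29.6, 33.8, 26.4 and 49.7 CPM. *H2-Ob* was the single member that was not lowest in PBS-HPS1, where it stood above both wild-type libraries. B cell markers, for comparison, summed to 202 CPM in PBS-WT against 216 in PBS-HPS1, and 191 in BLEO-WT against 427 in BLEO-HPS1, which is the order of libraries of *H2-Ob*. Their part in the *H2-Oa* and *H2-Ob* values was not tested.

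*Ciita* had 99.3 CPM in PBS-WT against 59.0 in PBS-HPS1, and 116 in BLEO-WT against 139 in BLEO-HPS1. With TMM scaling the order of libraries was the one seen in 7 of the 10 members, and the highest level was 2.35 times the lowest, against 5.97 times for *H2-Ab1*. *H2-Eb2* and *H2-Oa* differed from that order only in the wild-type pair, with PBS-WT above BLEO-WT.

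Between genotypes after PBS, where all compared genes had a median log2 ratio of -0.19, the members' median for PBS-HPS1 over PBS-WT was -0.87. Of the members, 9 lay below 0 and 1, *H2-Ob* (0.19, interval 0.11 to 0.27), above. None reached a 2-fold difference, against 3.11% of all compared genes at least 2-fold lower and 2.16% at least 2-fold higher. *H2-Aa* came closest with -0.99, which is 1.98-fold lower in PBS-HPS1. Macrophage markers were also lower in PBS-HPS1, with a median log2 ratio of -0.70 over 12 genes. Their part in the members' difference was not tested.

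Between genotypes after bleomycin the sign turned, and all 10 members lay above 0 for BLEO-HPS1 over BLEO-WT. Their median was 0.82, against -0.04 over all compared genes. *H2-Oa* alone was at least 2-fold higher, with a log2 ratio of 1.53 (1.42 to 1.64), against 6.72% of all compared genes higher and 10.3% lower by that rule. *Ciita* had the smallest ratio, 0.25 (0.21 to 0.30). After correction of the ratios for transcript GC content and length, 8 members moved down and 2, *H2-Eb2* and *H2-Ob*, moved up. The members' median was then 0.32, against -0.04 over all compared genes. *H2-Oa* then had 0.90 and *H2-Eb2* and *H2-Ob* were past 2-fold with 1.48 and 1.22, beside 5.2% of the genes compared with that correction, while *Cd74* had 0.11 and *H2-DMb1* 0.09. Without the correction, medians in this comparison were -0.09 for macrophage, 0.39 for dendritic cell, 0.87 for B cell and 0.86 for T cell markers. With the correction they were -0.23, 0.28, 1.25 and 0.62. The part of these cells was not tested.

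Bleomycin in wild-type mice gave a members' median of 0.66 for BLEO-WT over PBS-WT, against 0.09 over all compared genes. The highest ratio was that of *H2-Ab1*, 0.81 (0.80 to 0.82), and *H2-Aa*, *H2-Eb1* and *H2-DMb1* had 0.77, 0.80 and 0.79. No member was at least 2-fold different, against 5.28% of all compared genes higher and 8.22% lower. *H2-Ob* (-0.17, -0.25 to -0.08) and *H2-Oa* (-0.14, -0.26 to -0.01) were lower in BLEO-WT. *Ciita* had 0.23 with TMM scaling and -0.04 with scaling to total counts, and *H2-Eb2* had 0.00 (-0.20 to 0.19) and 0.33 after the GC and length correction, so neither has a settled direction here. The macrophage markers had a median of 0.84, the dendritic cell markers -0.09, the B cell markers -0.26 and the T cell markers -0.13, and their part was not tested.

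Bleomycin in Hps1-/- mice gave the largest ratios, with a members' median of 2.25 for BLEO-HPS1 over PBS-HPS1 against 0.25 over all compared genes. At least 2-fold higher were 9 of 10 members, beside 26.2% of all compared genes, and 19.6% were at least 2-fold lower. *H2-Ab1* was 5.97-fold higher (log2 ratio 2.58, interval 2.57 to 2.59), *H2-Eb1* 5.79-fold, *H2-Aa* 5.15-fold and *Cd74* 4.84-fold. *Ciita* was 2.35-fold higher (1.23, 1.19 to 1.28) and *H2-Eb2* 2.41-fold. With total counts these 2 were short of 2-fold (0.59 and 0.63), which left 7 members past it. *H2-Ob* had 0.55 (0.48 to 0.63), which became -0.09 with total counts and 0.97 after the GC and length correction. With that correction 9 members were past 2-fold, beside 15.6% of genes, and the median was 1.46. Without the correction, medians in this comparison were 1.38 for macrophage, 0.44 for dendritic cell, 0.57 for B cell and 1.07 for T cell markers. With the correction they were 1.41, 0.41, 0.86 and 0.76. The part of these cells was not tested.

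**Figure D3:**
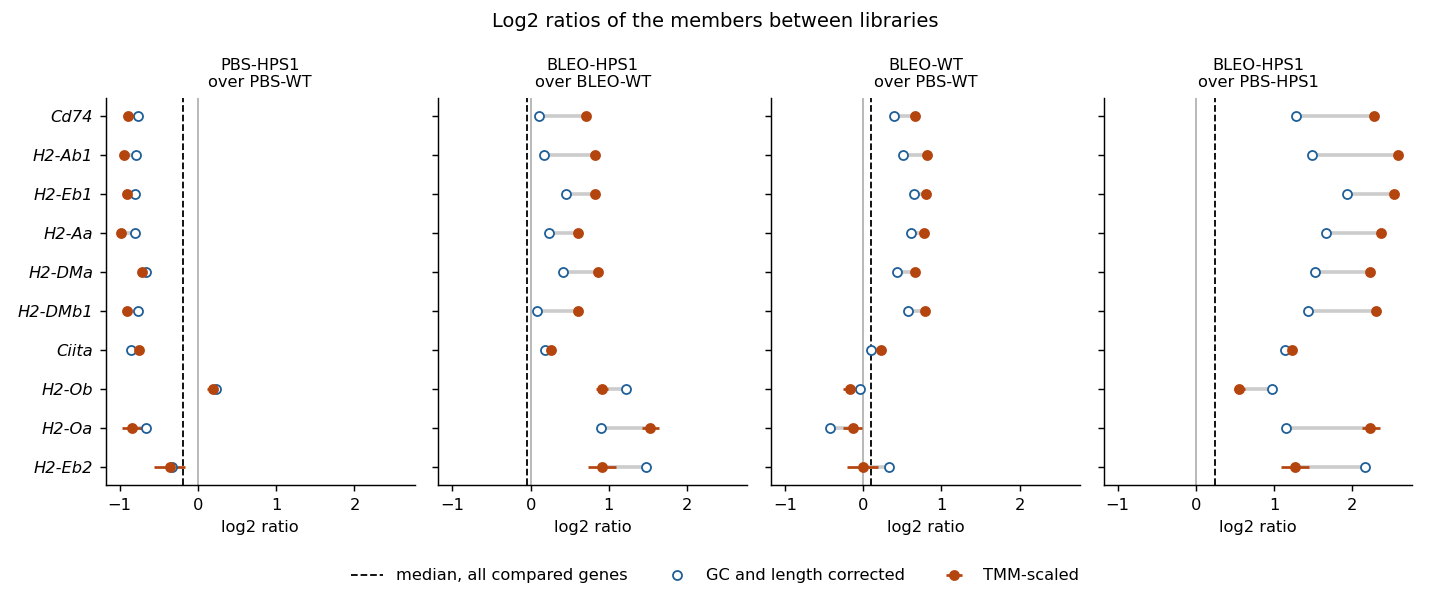
Log2 ratios of each member in the 4 comparisons, TMM-scaled (filled, with exact 95% counting intervals) and corrected for transcript GC content and length (open); the dashed line is the median of all compared genes. The members sit left of that line after PBS, except *H2-Ob*, and right of it in BLEO-HPS1 over PBS-HPS1, where corrected values run from 0.97 to 2.16.

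Each library enters 2 of these comparisons, so their ratios are not independent of each other. The scaling itself shifts every gene of a comparison alike: TMM ratios stood 0.24 below those from total counts for PBS-HPS1 over PBS-WT, and 0.13, 0.26 and 0.64 above them for BLEO-HPS1 over BLEO-WT, BLEO-WT over PBS-WT and BLEO-HPS1 over PBS-HPS1. The members' own sequence leans to higher GC content and shorter transcripts, with medians of 54.5% GC and 1540 bases against 50.2% and 2989 bases over all compared genes. *H2-Eb2* (43.5% GC, 3392 bases) and *H2-Ob* (46.0% GC, 2670 bases) had the lowest GC of the members, and in all 3 comparisons with a bleomycin library they were the 2 members that the correction raised.

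The response to bleomycin was set side by side in the genotypes as the log2 ratio in Hps1-/- minus that in wild-type. This difference was above 0 for all 10 members, with a median of 1.58 against 0.15 over all compared genes. It was largest for *H2-Oa* and smallest for *H2-Ob*. With total counts it was 1.20 against -0.23, and after the GC and length correction 1.05 against 0.17, again with 10 of 10 members above 0.

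Ratios between members within one library do not depend on the scaling of libraries, though GC content and length still enter them. Per kilobase of transcript, *H2-Eb1* stood at 0.614 of *H2-Ab1* in PBS-WT against 0.631 in PBS-HPS1, and 0.610 in BLEO-WT against 0.611 in BLEO-HPS1, a span of 1.04-fold while the levels themselves moved by up to 5.97-fold. *H2-Aa* stood at 0.691, 0.675, 0.675 and 0.582 of *H2-Ab1*, lowest in BLEO-HPS1 without a correction. After the GC and length correction, log2 ratios for BLEO-HPS1 over PBS-HPS1 were 1.93 for *H2-Eb1*, 1.66 for *H2-Aa* and 1.49 for *H2-Ab1*. Both *H2-Eb1* and *H2-Aa* were then above *H2-Ab1*, whereas uncorrected they had 2.53 and 2.37 against 2.58. *H2-DMa* over *H2-DMb1* was 1.01, 1.16, 0.921 and 1.11, higher in both Hps1-/- libraries. With *H2-DMb2* added to the beta side it was 0.794, 0.850, 0.744 and 0.826, with the same order.

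*Cd74* per kilobase stood at 0.790 of the summed *H2-Aa*, *H2-Ab1* and *H2-Eb1* in PBS-WT against 0.818 in PBS-HPS1, and 0.720 in BLEO-WT against 0.697 in BLEO-HPS1. Without a correction, the ratio of the invariant chain to the chains it binds stayed within 1.17-fold. For BLEO-HPS1 over PBS-HPS1 *Cd74* had a log2 ratio of 2.28, against a median of 2.53 for these chains. After the GC and length correction the values were 1.28 and 1.66. H2-DM over the same chains ran from 6.61% in BLEO-HPS1 to 7.83% in PBS-HPS1. H2-DO over H2-DM was 8.73% in PBS-WT against 12.6% in PBS-HPS1, and 4.76% in BLEO-WT against 6.96% in BLEO-HPS1. In this sum each Hps1-/- library was above the wild-type library of its treatment, and each bleomycin library below the PBS library of its genotype. The alpha chains alone left part of that order unsettled. *H2-Oa* over *H2-DMa* was 9.44% in PBS-WT and 8.61% in PBS-HPS1, then 5.45% in BLEO-WT against 8.63% in BLEO-HPS1. Counting intervals of PBS-WT, PBS-HPS1 and BLEO-HPS1 overlapped, and that of BLEO-WT lay below them. After the GC and length correction, *H2-Oa* had 1.16 and *H2-DMa* 1.52 for BLEO-HPS1 over PBS-HPS1, against 2.23 for both without it. The beta chains alone showed that order, with *H2-Ob* over *H2-DMb1* at 8.01% and 17.1% after PBS and at 4.12% and 5.12% after bleomycin.

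The ratio of the H2-DO chains to each other varied more. *H2-Oa* over *H2-Ob* per kilobase was 1.19 (1.11 to 1.28) in PBS-WT against 0.583 (0.539 to 0.630) in PBS-HPS1, and 1.22 (1.13 to 1.31) in BLEO-WT against 1.87 (1.77 to 1.97) in BLEO-HPS1. Without a correction, the intervals of the wild-type libraries overlapped and the Hps1-/- libraries lay on either side of them. After the GC and length correction, the log2 ratio of *H2-Oa* exceeded that of *H2-Ob* by 0.19 in BLEO-HPS1 over PBS-HPS1, in place of 1.68 without it, while the gap after PBS was -0.89 in place of -1.03. For BLEO-HPS1 over BLEO-WT the gap changed sign with the correction, from 0.61 to -0.32.

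*Ciita* was compared with the 3 abundant chains, which it is known to switch on. Per kilobase it stood at 0.419% of the summed *H2-Aa*, *H2-Ab1* and *H2-Eb1* in PBS-WT against 0.482% in PBS-HPS1, and 0.283% in BLEO-WT against 0.199% in BLEO-HPS1, so the share was lower the higher the class II level of the library. The median log2 ratio of the 3 chains exceeded that of *Ciita* by 1.30 in BLEO-HPS1 over PBS-HPS1 and by 0.57 in BLEO-WT over PBS-WT. After the GC and length correction these gaps were 0.52 and 0.52. Between genotypes after bleomycin the gap was 0.56 and, after the correction, 0.05. After PBS *Ciita* had -0.75 against -0.95 for the chains, and -0.85 against -0.80 after the correction.

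**Figure D4:**
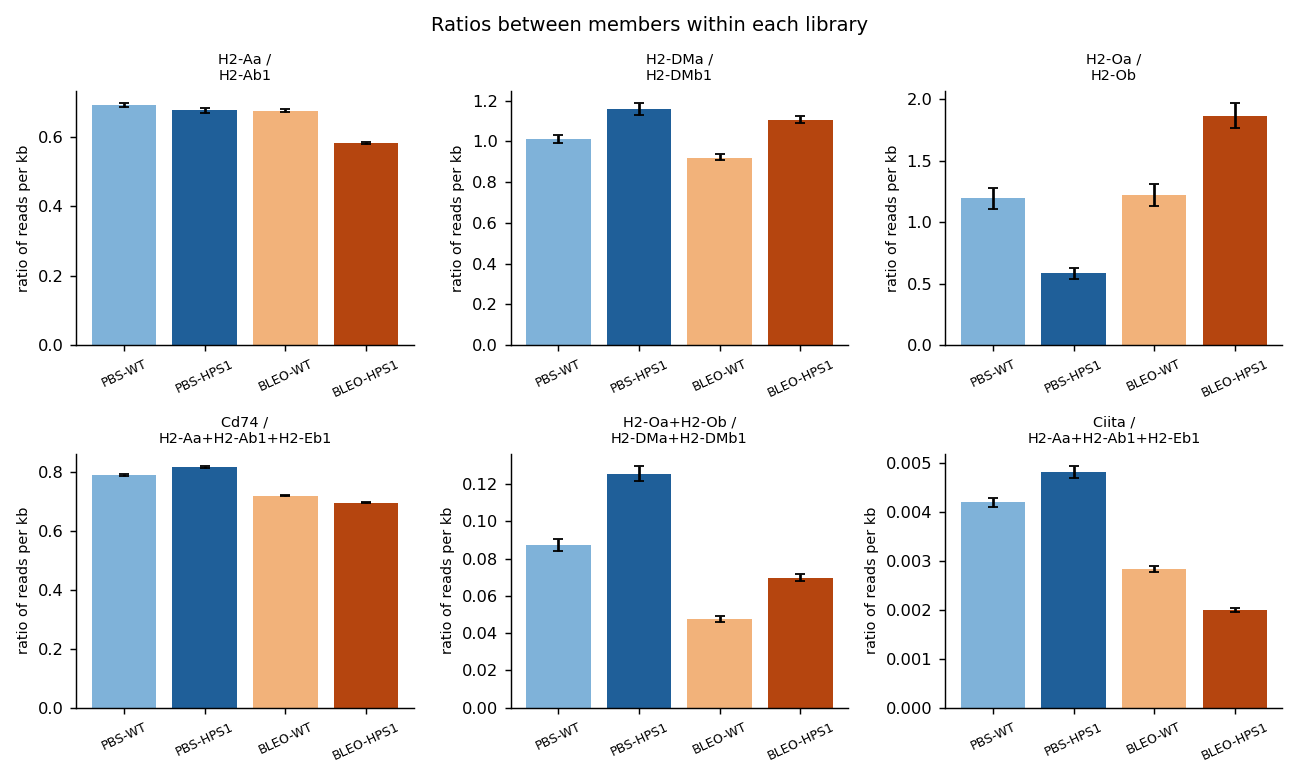
Ratios of reads per kilobase between members within each library (bars from 0, with exact 95% counting intervals), 1 library per group. Without the GC and length correction, *H2-Aa* over *H2-Ab1* and *Cd74* over the chains vary by at most 1.19-fold. Likewise uncorrected, *H2-Oa* over *H2-Ob* varies 3.20-fold and *Ciita* over the chains 2.42-fold.

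Genes around the members were described by lists. Of 9 factors of the class II promoter, none was at least 2-fold different in BLEO-WT over PBS-WT or in PBS-HPS1 over PBS-WT. In BLEO-HPS1 over BLEO-WT, 2 were lower, the acetyltransferase genes *Crebbp* (-1.10) and *Ep300* (-1.08), and in BLEO-HPS1 over PBS-HPS1 3 were lower, *Creb1* (-1.77), *Crebbp* (-1.43) and *Ep300* (-1.20), beside 10.3% and 19.6% of all compared genes. After the GC and length correction no factor was past 2-fold in any comparison. *Nfya*, a subunit of NF-Y and with *Ep300* (72.0 to 166 CPM) the most abundant of the list, had 86.3 CPM in PBS-WT against 88.9 in PBS-HPS1, and 81.3 in BLEO-WT against 64.0 in BLEO-HPS1.

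Of 13 inducers and repressors of *Ciita*, none was past 2-fold in PBS-HPS1 over PBS-WT. *Ifng*, the cytokine best known to induce *Ciita*, had 14.1 CPM in PBS-WT against 16.7 in PBS-HPS1, and 4.49 in BLEO-WT against 7.80 in BLEO-HPS1, lower in both bleomycin libraries, where *Ciita* was higher with TMM scaling (with total counts in the Hps1-/- pair alone). It was the 1 gene lower in BLEO-WT over PBS-WT (-1.65), and *Jak2*, a kinase of its receptor, was the 1 lower in BLEO-HPS1 over BLEO-WT (-1.18). Of all compared genes, 8.22% and 10.3% were at least 2-fold lower there. In BLEO-HPS1 over PBS-HPS1, *Socs1* (1.12) and *Spi1* (1.03) were higher and *Jak2* (-1.37), the repressor gene *Prdm1* (-1.22) and *Ifng* (-1.10) lower. All compared genes had 26.2% higher and 19.6% lower in that comparison. After the correction none of the 13 was past 2-fold in that comparison. The most abundant of the list were *Jak1*, with 318 to 467 CPM, and the receptor gene *Ifngr1*, with 373 to 439 CPM.

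Most of the genes listed for preparing peptides for class II molecules were at least 2-fold higher after bleomycin in both genotypes. Of 11 proteases, inhibitors and the thiol reductase *Ifi30*, 7 were at least 2-fold higher in BLEO-WT over PBS-WT (median 1.14) and 9 in BLEO-HPS1 over PBS-HPS1 (median 1.93), and 5 and 9 after the correction, beside 5.28% and 26.2% of all compared genes without it. *Ctsk* (0.11, and -0.22 after the correction) and *Ctsc* (0.35) were the 2 short of 2-fold in the Hps1-/- comparison. After PBS none was past 2-fold between genotypes and the median was -0.53. *Lgmn*, the endopeptidase that opens many antigens and the invariant chain, had 192 CPM in PBS-WT against 133 in PBS-HPS1, and 1263 in BLEO-WT against 1120 in BLEO-HPS1. *Ctss*, the protease of the late invariant chain, had 1814, 1189, 4412 and 2588 CPM. The most abundant, *Ctsd* and *Ctsb*, had log2 ratios of 1.76 and 1.98 in the wild-type and 1.93 and 2.45 in the Hps1-/- comparison. Between genotypes after bleomycin none was past 2-fold and the median was -0.07, whereas all members were above 0 there. Macrophages express many of these proteases. Of the 12 macrophage markers, 5 were at least 2-fold higher and 0 lower in BLEO-WT over PBS-WT. In BLEO-HPS1 over PBS-HPS1, 8 were higher and 2, *Mertk* (-1.55) and *Mrc1* (-1.23), lower. After the correction 3 were higher in the wild-type comparison, and 7 higher and 2 lower in the Hps1-/- comparison. The 2 lower were then *Mertk* (-1.09) and *Marco* (-1.30), while *Mrc1* had 0.02. *C1qa*, a complement gene of macrophages, had 143, 73.2, 1391 and 2047 CPM. The part of these cells in the protease values was not tested.

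Class I presentation genes, 16 in all, had a median of -0.01 in BLEO-WT over PBS-WT, where the members had 0.66, and -0.46 in PBS-HPS1 over PBS-WT, with none past 2-fold in either. In BLEO-HPS1 over BLEO-WT 4 were at least 2-fold higher (median 0.75), the immunoproteasome genes *Psmb9* (1.29), *Psmb8* (1.20) and *Psmb10* (1.08) and the peptide transporter gene *Tap1* (1.11). In BLEO-HPS1 over PBS-HPS1 10 were higher (median 1.21), among them the heavy chain genes *H2-D1* (1.43) and *H2-K1* (1.21), the most abundant of the list. Over all compared genes, 6.72% and 26.2% were at least 2-fold higher in these 2 comparisons. After the correction the class I counts were 0 and 3, beside 5.2% and 15.6% of genes. *Nlrc5*, the class I counterpart of *Ciita*, had 79.9 CPM in PBS-WT against 84.4 in PBS-HPS1, and 79.3 in BLEO-WT against 71.2 in BLEO-HPS1.

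Of 3 genes of class II turnover at the surface, *March8* was past 2-fold in no comparison. *March1*, the ubiquitin ligase that removes class II molecules, had 70.7 CPM in PBS-WT against 49.1 in PBS-HPS1, and 50.7 in BLEO-WT against 23.9 in BLEO-HPS1. It was lowest in the library with the most class II RNA, with -1.08 against BLEO-WT and -1.04 against PBS-HPS1. After the correction these ratios were -0.33 and 0.42. *Cd83*, known to oppose it, had 121, 132, 301 and 213 CPM with a log2 ratio of 1.31 for BLEO-WT over PBS-WT.

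Of 6 costimulatory genes compared, *Cd40* and *Cd86* were at least 2-fold higher in BLEO-HPS1 over PBS-HPS1 (2.05 and 1.002) and *Cd274* and *Cd80* at least 2-fold lower (-1.86 and -1.07), beside 26.2% higher and 19.6% lower over all compared genes. *Cd274*, which encodes PD-L1, was also at least 2-fold lower in BLEO-HPS1 over BLEO-WT (-1.47). After the correction *Cd80* had -0.12 in BLEO-HPS1 over PBS-HPS1 and *Cd274* -0.95 in BLEO-HPS1 over BLEO-WT, both short of 2-fold, and *Cd40* had 1.05 in BLEO-HPS1 over BLEO-WT. *Cd40*, the receptor through which T cells signal to presenting cells, had 15.7 CPM in PBS-WT against 9.29 in PBS-HPS1, and 20.6 in BLEO-WT against 38.5 in BLEO-HPS1, the order of libraries of the abundant class II genes.

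The genes closest to the members' mean pattern over the 4 libraries were ranked by the root mean square difference of centred log2 CPM among 10192 genes with at least 10 CPM in some library. *Dmac1* was closest with 0.0103, then *Siva1* (0.0203) and *Trappc1* (0.0246), and *Cd40* was the 7th with 0.0402. The members themselves lay farther from their own mean, from 0.124 for *H2-DMa* to 0.597 for *H2-Ob*. For *Ciita* alone *Pclaf* was closest (0.0280), before *Osgin1*, *Ano10*, *Ctse* and *Snrnp35*. Each of these patterns rests on 4 points, and the 10th gene of the first ranking was still within 0.0449.

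The summed dendritic cell markers had the members' order of libraries, 946 CPM in PBS-HPS1, 1134 in PBS-WT, 1234 in BLEO-WT and 1524 in BLEO-HPS1, a narrower range than the members' 5412 to 28223 CPM. *Itgax* and *Ccr7* gave most of that sum, and gene by gene 5 of the 12 were above 0 and 3 at least 2-fold lower in BLEO-WT over PBS-WT, *Cd209a* (-1.42), *Clec9a* (-1.37) and *Siglech* (-1.32). The macrophage markers had 7992, 12011, 20243 and 20429 CPM, a sum nearly level between the bleomycin libraries, where the members differed. *Lyz2* led that sum, with 13145 CPM in BLEO-WT and 12344 in BLEO-HPS1. Gene by gene, 5 of the 12 were above 0 in BLEO-HPS1 over BLEO-WT, among them *C1qa* (0.56). In that comparison *Mertk* (-1.54) and *Mrc1* (-1.40) were at least 2-fold lower, beside 10.3% of all compared genes. After the GC and length correction *Mertk* had -1.19, and *Mrc1*, with -0.69, was short of 2-fold. The alveolar type 2 markers were lowest in BLEO-HPS1, at 425 CPM, with 1309 CPM in PBS-WT, 919 in PBS-HPS1 and 703 in BLEO-WT. The ILC2 markers summed to 705 to 1067 CPM, and *Arg1* and *Thy1* gave most of that sum in the bleomycin libraries. *Arg1* had 8.34 CPM in PBS-WT against 4.59 in PBS-HPS1, and 387 in BLEO-WT against 257 in BLEO-HPS1. *Thy1* had 306.5, 206, 224 and 551 CPM in the same libraries. Single genes of the list moved both ways. In BLEO-HPS1 over PBS-HPS1, 4 of 13 compared were at least 2-fold higher and 5 lower, beside 26.2% and 19.6% of all compared genes. Their median there was -0.75, and -0.11 after the correction, with *Arg1* at 5.80 and *Rora* at -2.57. In BLEO-WT over PBS-WT it was -0.46. No marker of these lists was at 0 reads in any library. Their part in the class II levels was not tested.

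**Figure D5:**
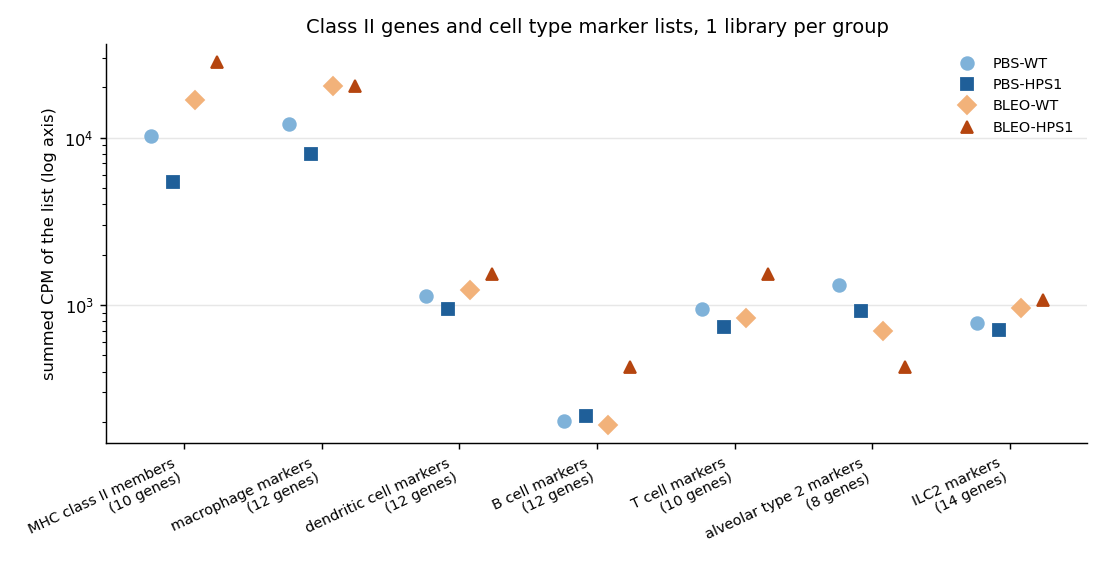
Summed CPM of the 10 members and of 6 cell type marker lists on a log axis, 1 point per library. The members span 5412 to 28223 CPM and the macrophage markers 7992 to 20429 CPM. The ILC2 markers lie between 705 and 1067 CPM, a sum of genes that moved in both directions.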

How the data were processed

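RNA of sorted lung ILC2s was sequenced after a SMARTER mRNA kit, with 1 library in each of 4 groups taken from the labels. The authors deposited a table of raw counts of reads for each Ensembl gene; aligner, counter, build, annotation and strandedness are not given in the sources used here. Of 49315 gene IDs, 49056 were found in GENCODE M21, which gave positions and the length and GC content of the longest coding transcript.

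Counts were scaled with TMM factors (edgeR 4.0.16, R 4.3.3), and log2 CPM used a prior count of 2. Genes with at least 1 CPM in some library were compared. Ratios have exact Clopper-Pearson 95% intervals, and the floor was 3 reads. PCR copies of a molecule are counted separately, so these cover counting error only. A 2-fold difference (log2 ratio of 1) was counted with no test, because no group had a replicate. The alternatives were DESeq2 1.42.0 size factors, total counts, prior counts of 0.5 and 10, no filter, a log2 threshold of 2, and loess correction for GC content and length (span 0.3). The difference between genotypes under each scaling and the sum of *H2-DMb1* and *H2-DMb2* were added after seeing the data. The calculations were tested on simulated data.

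Named in the text were all members and, from each list, the 2 genes with the highest mean CPM and genes past 2-fold that a count turns on; the other genes named (*Nlrc5*, *Lgmn*, *Ctss*, *Ifng*, *March1*, *Cd83*, *Cd40* and markers) were chosen for their role after values were seen. Members and lists were chosen with earlier results of these data known. Promoters came from RefSeq (GRCm38.p6).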

Additional observations from a re-analysis of the deposited data

Results flagged for a closer look

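Every member had a higher bleomycin log2 ratio in Hps1-/- than in wild-type mice, and these differences are listed because the Hps1-/- library was below wild-type after PBS and above it after bleomycin in 9 members, while in *H2-Ob* the bleomycin ratio had opposite signs in the genotypes. With 1 library per group the difference was not tested. *H2-Oa* had the largest, 2.37, being lower with bleomycin in wild-type (-0.14) and higher in Hps1-/- (2.23). The abundant genes lay close together, at 1.59 for *H2-Aa*, 1.77 for *H2-Ab1*, 1.73 for *H2-Eb1* and 1.61 for *Cd74*. The H2-DM genes *H2-DMa* and *H2-DMb1* had 1.58 and 1.51, *H2-Eb2* had 1.27 and *Ciita* 1.004. *H2-Ob* had the smallest, 0.72. After correction for GC content and length, *H2-Eb2* had the largest (1.83) and *H2-DMb1* the smallest (0.86).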

How the results depend on the processing

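No paired analysis was possible because each group had 1 library, and for the same reason no replicate could be left out. With total counts in place of TMM the members' median was -0.62 for PBS-HPS1 over PBS-WT, 0.69 for BLEO-HPS1 over BLEO-WT, 0.39 for BLEO-WT over PBS-WT and 1.61 for BLEO-HPS1 over PBS-HPS1; after the GC and length correction it was -0.76, 0.32, 0.41 and 1.46. DESeq2 size factors gave 0.88 and 0.64 for BLEO-HPS1 over BLEO-WT and BLEO-WT over PBS-WT. Members at least 2-fold higher in BLEO-HPS1 over BLEO-WT were 1, but 2 after the correction and 0 with a log2 threshold of 2; in BLEO-HPS1 over PBS-HPS1 they were 9, but 7 with total counts. The median difference between genotypes in the response to bleomycin was 1.61 with DESeq2 size factors, 1.20 with total counts and 1.05 after the correction. Of 40 single ratios, 2 changed sign with total counts (*Ciita* in BLEO-WT over PBS-WT, *H2-Ob* in BLEO-HPS1 over PBS-HPS1), 1 with the correction (*H2-Eb2* in BLEO-WT over PBS-WT) and 0 with DESeq2 size factors or either other prior count. Summing *H2-DMb1* with *H2-DMb2* gave -0.81, 0.72, 0.75 and 2.27 in the 4 comparisons. The causes of these shifts were not tested beyond the scaling and the correction themselves. Counting error limits mainly *H2-Eb2*, which had 422 to 650 reads per library.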
